A study of Mus musculus with 2 samples.

Results

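The genes of MHC class II antigen presentation were followed here: the classical chain genes H2-Aa, H2-Ab1 and H2-Eb1, the invariant chain gene Cd74, the regulator gene Ciita, and the peptide loading genes H2-DMa, H2-DMb1 and H2-Oa. They were found by their symbols, and all 8 were present among the 40879 gene symbols counted in each library. RNA-seq was performed on intestine of wild-type (WT) mice and of mice whose genotype label is hetero type. The study names the latter ERAP1+/-, and their library is called labelled ERAP1+/- here. This name stands for 1 altered copy of Erap1, the gene of an aminopeptidase that trims peptides in the endoplasmic reticulum for MHC class I. Each genotype was sequenced as 1 library of RNA pooled from 3 mice of the C57BL/6 background, 8 weeks old at the start of the study, and the labels name no treatment. The methods describe the mice as germ-free animals kept in a specific pathogen-free facility. The altered line goes back to 1 clone of embryonic stem cells with the tm1a allele, and its carriers were crossed with a Cre strain to delete exons 6 and 7 between loxP sites. The labels name the tissue as intestine and parts of the study's text as colon. The promoter that drives Cre and the sex of the mice are not given in the sources used here.

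MHC class II molecules are pairs of an alpha and a beta chain that present peptides from the endosomes to CD4 T cells. In the intestine they are carried mainly by dendritic cells, macrophages and B cells, and the epithelium can make them when it is exposed to interferon gamma. New pairs bind the invariant chain, endosomal proteases degrade that chain, and the DM heterodimer exchanges its last fragment for a peptide, a step that the DO heterodimer holds back. Transcription of these genes depends on Ciita, a coactivator recruited by factors that bind the X and Y boxes of their promoters.

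The promoters are shown because the genes have this control element in common and the results below compare how far they differ from each other. RefSeq windows of the build GRCm38.p6, from 250 bases before to 50 bases after the start site, were found for 5 of the 8 genes. H2-Ab1, Cd74 and Ciita had no window. Each line gives 55 bases in the direction of transcription around the CCAAT box on that strand that lies nearest upstream of the start site, and the capitals mark the letters searched for.

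H2-Aa, chr17:34287862-34287916, minus strand: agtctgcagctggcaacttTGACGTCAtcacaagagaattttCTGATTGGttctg
H2-Eb1, chr17:34305763-34305817, plus strand: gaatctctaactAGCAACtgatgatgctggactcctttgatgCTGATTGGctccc
H2-Oa, chr17:34092291-34092345, plus strand: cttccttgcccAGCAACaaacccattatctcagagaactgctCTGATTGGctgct
H2-DMb1, chr17:34153085-34153139, plus strand: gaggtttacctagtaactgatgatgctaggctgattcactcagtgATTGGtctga
H2-DMb2, chr17:34145114-34145168, plus strand: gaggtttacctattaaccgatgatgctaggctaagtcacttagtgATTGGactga

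Both strands were searched for the Y box CTGATTGG, the CCAAT box ATTGG that lies within it, the X1 core AGCAAC, and the X2 box as TGATGTCA, TGACGTCA or TGATGCAA. H2-Aa, H2-Eb1 and H2-Oa held the whole Y box, which is found in 4.10% of the 32851 windows of the table. Of the letters searched for, H2-DMb1 matched exactly only the shorter CCAAT box, which is found in 37.4% of windows. There it lay 61 bases before the start site. The box lay 48 bases before the start in H2-Aa, 59 in H2-Eb1 and 43 in H2-Oa. H2-Eb1 also held the box on the opposite strand, 35 bases before its start. The X1 core, in 14.8% of windows, was matched in H2-Eb1 and H2-Oa, beginning 33 and 34 bases upstream of the CCAAT box. A search for exact letters leaves out near matches, such as ggcaac in the H2-Aa line and agtaac in the H2-DMb1 line. The X2 letters, in 6.19% of windows, were matched in H2-Aa only among the 5 genes. H2-DMa had 2 windows, of which 1 held a CCAAT box 198 bases before its start and the other held none of the letters. The windows of H2-DMb1 and its neighbour H2-DMb2 were equal at 49 of 55 positions (89.1%). A match is a description of letters, and its use by any factor was not measured.

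The libraries held 8114826 reads (WT) and 8907515 reads (labelled ERAP1+/-), of which mitochondrial and ribosomal RNA took 18.0% and 16.7%. Erap1, the targeted gene, was counted 229 times in WT and 2 times in the other library, a level of 0.730% of WT, which goes against a label with 1 copy intact; the reads come from the 3' end, outside the deleted exons, and do not check the deletion or the number of copies. Intestinal epithelium markers were abundant in both (83526 and 81502 reads over 12 genes), and genes of the suprabasal epidermis took 0.298% of WT reads but 0.00241% in the library labelled ERAP1+/-, those of skeletal muscle 0.106% and 0.00193%. Xist had 1635 and 6451 reads, and 4 Y-linked genes together 612 and 46. The 2 pools thus differed in reads of sex-linked genes, and an effect of sex cannot be told apart from one of genotype. Values are given as CPM, reads scaled to a common library size with factors from the trimmed mean of M-values method (TMM), and as differences on the log2(CPM + 1) scale, which understates the change of low genes. Intervals are exact 95% intervals that cover counting error only. With 1 library per genotype no difference has a replicate check, the spread between mice is unknown and no p-value is given.

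Together the 8 class II genes were moderately higher in the library labelled ERAP1+/-. Their summed reads were 3070 in the WT library and 4888 in the other, which is 0.0378% and 0.0549% of all reads. The scaled sums were 395 and 525 CPM, a ratio of 1.33 (95% interval 1.27 to 1.39). The genes did not differ by the same amount: H2-Aa and H2-Eb1 differed most, H2-Ab1 and Cd74 differed little, Ciita, H2-DMa and H2-Oa had intervals that included 1, and H2-DMb1 was on the lower side. In bulk tissue, more cells that carry class II and more class II RNA per cell cannot be told apart.

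H2-Aa encodes the alpha chain of I-A, the classical class II molecule on the cells of C57BL/6 mice. In GENCODE M21 on GRCm38 it occupies chromosome 17, positions 34282744 to 34287823, minus strand. Reads of the gene numbered 809 in WT and 1515 in the library labelled ERAP1+/-, or 104 CPM (97.1 to 112) and 163 CPM (155 to 171). The log2 difference was 0.64 and the ratio 1.56 (95% interval 1.44 to 1.71). The counting intervals of the 2 libraries did not overlap.

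H2-Ab1, the gene of the I-A beta chain, lies beside H2-Aa on the plus strand (34257689 to 34269419). Its product pairs with that of H2-Aa, yet its difference was much smaller. It had 847 and 1130 reads, or 109 CPM (102 to 117) and 121 CPM (114 to 129), intervals that overlapped. The log2 difference was 0.15, or 0.28 under scaling by the total count, and the ratio was 1.11 (1.02 to 1.22).

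H2-Eb1 encodes the beta chain of I-E, on the plus strand from 34305867 to 34316674. Mice with the H2b haplotype, as in C57BL/6, carry a defective alpha chain gene for I-E and show no I-E on the surface, so this RNA has no classical partner. The row of H2-Ea held 0 reads in both libraries, which allows up to 0.386 CPM (WT) and 0.322 CPM (labelled ERAP1+/-) at a floor of 3 reads. H2-Eb1 was counted at 429 reads in WT and 891 in the other library, or 55.2 CPM (50.1 to 60.7) and 95.8 CPM (89.6 to 102). It had the largest difference of the 8 genes, 0.78 on the log2 scale, with a ratio of 1.73 (1.54 to 1.95).

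Cd74, the invariant chain that guides class II pairs to the endosomes, lies on chromosome 18 from 60803848 to 60812652. It had 753 and 1070 reads, or 96.9 CPM (90.1 to 104) and 115 CPM (108 to 122). The log2 difference was 0.24, or 0.37 under scaling by the total count, and the ratio was 1.19 (1.08 to 1.30). The invariant chain therefore stood close to H2-Ab1 and below H2-Aa and H2-Eb1 in its difference.

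**Figure D1:**
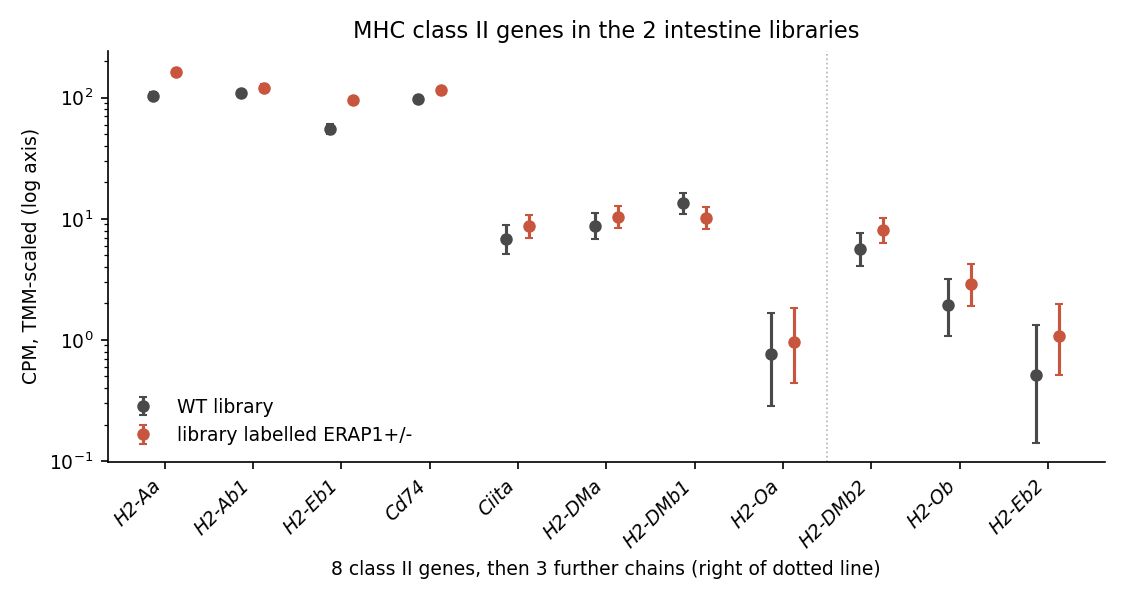
Level of each class II gene in CPM, TMM-scaled, on a log axis, for the WT library (dark) and the library labelled ERAP1+/- (red), with exact 95% counting intervals, for the 8 genes and, right of the dotted line, 3 further class II chains. The 4 genes of about 55 to 163 CPM sit far above the 4 others, H2-Aa and H2-Eb1 are clearly separated between the libraries, and H2-DMb1 is the only one of the 8 lower in the library labelled ERAP1+/-.

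The peptide loading genes were measured at much lower counts, and none of the 3 had an interval that excluded 1. H2-DMa encodes the alpha chain of the DM exchange factor (plus strand, 34119541 to 34139101). It had 68 and 97 reads, or 8.75 CPM (6.80 to 11.1) and 10.4 CPM (8.46 to 12.7), a log2 difference of 0.23 and a ratio of 1.19 (0.865 to 1.65).

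H2-DMb1, the gene of a DM beta chain (plus strand, 34153072 to 34160230), was the only member lower in the library labelled ERAP1+/-. It had 105 and 95 reads, or 13.5 CPM (11.1 to 16.4) and 10.2 CPM (8.26 to 12.5). The log2 difference was -0.37 and the ratio 0.756, with an interval of 0.566 to 1.01 that just reached 1. Its neighbour H2-DMb2, which encodes the other DM beta chain, went the opposite way, with 44 and 75 reads and a ratio of 1.42 (0.969 to 2.12). Of the 981 words of 75 bases in the last 500 bases of the H2-DMb1 transcripts, 196 (20.0%) also occur in H2-DMb2 transcripts. Of the 432 such words of H2-DMb2, 27 (6.25%) occur in other genes, and H2-DMb1 is not among these. The shared words thus lie outside the last 500 bases of the H2-DMb2 transcripts, and how many reads are shared is unknown. Summed, the 2 beta chain genes had 149 and 170 reads, a ratio of 0.953 (0.760 to 1.20) and a log2 difference of -0.066.

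H2-Oa, the alpha chain of DO, the inhibitor of DM found mostly in B cells, lies on the plus strand from 34092340 to 34095234. It was near the limit of detection, with 6 reads in WT and 9 in the other library, or 0.772 CPM (0.283 to 1.68) and 0.967 CPM (0.442 to 1.84). The ratio of 1.25 had an interval from 0.398 to 4.28, so a difference in either direction was not detectable at this depth. Its partner H2-Ob had 15 and 27 reads, a ratio of 1.5 (0.772 to 3.04).

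Ciita, the coactivator on which the other genes depend, occupies positions 10480059 to 10528418 of chromosome 16, plus strand. It had 53 and 81 reads, or 6.82 CPM (5.11 to 8.92) and 8.71 CPM (6.91 to 10.8). The log2 difference was 0.31 and the ratio 1.28 (0.892 to 1.84), an interval that holds both no difference and the ratio of H2-Aa. The 3' end of Ciita is overlapped on the other strand by Dexi (228 and 247 reads), and whether counting used strand is not stated, so that reads of the 2 genes may not be told apart. H2-Oa is overlapped in the same way by BC051537, which had 0 reads in both libraries.

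The class II genes were set beside all genes by several rules. By the rule of more than 2-fold on the log2(CPM + 1) scale with a level of at least 4 in 1 or both libraries, 428 of 8013 genes differed (5.34%). The level of 4 was passed by 4 of the 8 members, H2-Aa, H2-Ab1, H2-Eb1 and Cd74, and 0 of them differed by 2-fold. At 1.5-fold higher with the same level, 444 of 8013 genes passed (5.54%), and H2-Aa and H2-Eb1 were the 2 of the 4 members among them.

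With a filter of 10 reads over both libraries, all 8 members were kept, and 7 were higher and 1 lower in the library labelled ERAP1+/-, where 50.3% of the 16142 genes past that filter were higher. Their median log2 difference was 0.24, and that of all 16142 genes was 0.0020. The interval lay above 1 for 4 of the 8, against 20.6% of all genes, and below 1 for 0 of the 8, against 23.8%. Because an interval narrows with depth, the genes with at least 1000 reads give the nearer background. All 4 members of that depth had intervals above 1, as did 27.8% of such genes. Of the genes past 10 reads, 5.89% had a higher difference than H2-Eb1, 9.06% than H2-Aa, 28.8% than Cd74, 36.0% than H2-Ab1 and 78.7% than H2-DMb1.

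**Figure D2:**
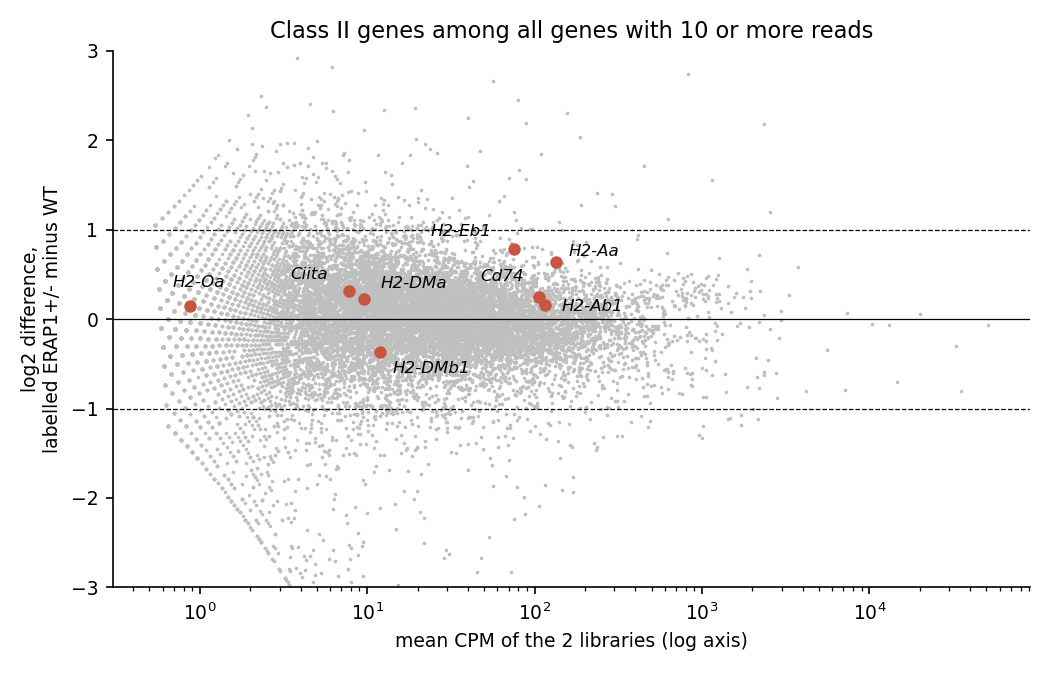
Log2 difference, library labelled ERAP1+/- minus WT, against the mean CPM of the 2 libraries (log axis) for 15968 genes with 10 or more reads (grey, with 174 more beyond the vertical axis) and the 8 class II genes (red), with dashed lines at 2-fold. H2-Eb1 (0.78) and H2-Aa (0.64) lie in the upper part of the cloud at their level, the other 5 higher genes lie within it, and H2-DMb1 (-0.37) lies below 0.

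The make-up of the class II reads within each library does not depend on how the libraries are scaled. H2-Aa took 26.4% (24.8% to 27.9%) of the reads of the 8 genes in the WT library and 31.0% (29.7% to 32.3%) in the library labelled ERAP1+/-, by exact Clopper-Pearson intervals. H2-Eb1 took 14.0% (12.8% to 15.3%) and 18.2% (17.2% to 19.3%). Both shares were larger in the library labelled ERAP1+/-, and their intervals did not overlap.

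The shares of the other abundant members were smaller in that library. H2-Ab1 took 27.6% (26.0% to 29.2%) of class II reads in WT and 23.1% (21.9% to 24.3%) in the other library, again without overlap. In WT the intervals of H2-Ab1 and H2-Aa overlapped, so neither I-A chain clearly led there. In the library labelled ERAP1+/- the alpha chain gene H2-Aa had the larger share, without overlap. Cd74 took 24.5% (23% to 26.1%) and 21.9% (20.7% to 23.1%), with intervals that met. H2-DMb1, whose reads may be shared with H2-DMb2, took 3.42% (2.81% to 4.13%) and 1.94% (1.58% to 2.37%), without overlap. Ciita, H2-DMa and H2-Oa differed in share by less than their intervals. These are shares of 3' reads and not of molecules, since priming can differ between genes.

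**Figure D3:**
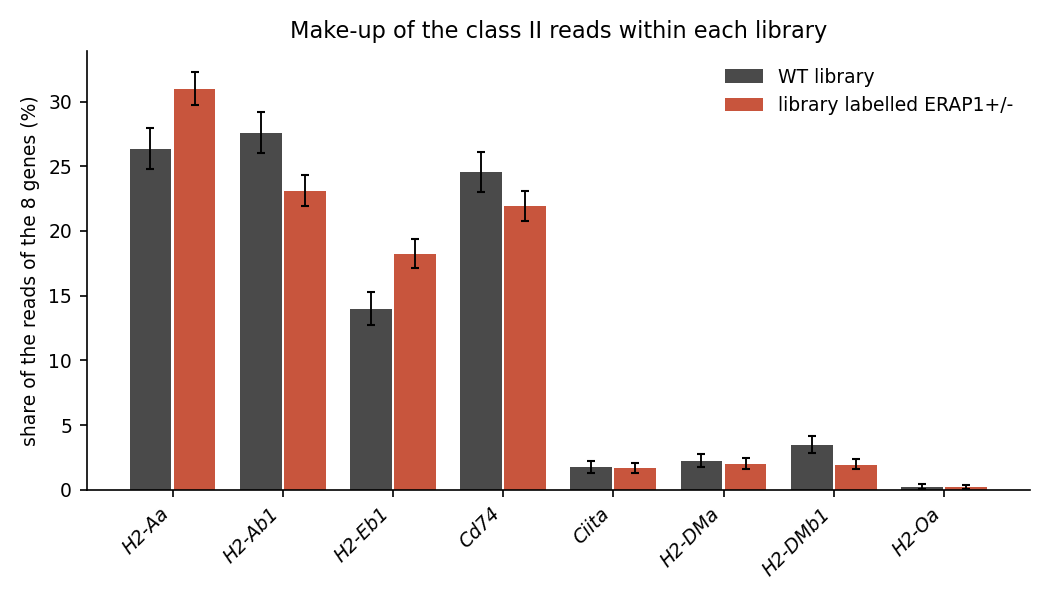
Share of the reads of the 8 class II genes taken by each gene, in percent, for the WT library (dark) and the library labelled ERAP1+/- (red), with exact Clopper-Pearson 95% intervals. H2-Aa goes from 26.4% to 31.0% and H2-Eb1 from 14.0% to 18.2%, while H2-Ab1 goes from 27.6% to 23.1%.

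Ratios between pairs of members show the same unequal differences. Reads of H2-Aa per read of H2-Ab1, the 2 chains of I-A, numbered 0.955 in the WT library and 1.34 in the library labelled ERAP1+/-, a ratio of ratios of 1.40 (1.24 to 1.59). For H2-Eb1 to H2-Ab1 the values were 0.506 and 0.788, a ratio of ratios of 1.56 (1.34 to 1.81). H2-Eb1 and H2-Aa differed from each other by less than counting error (1.11, 0.959 to 1.28), and so did Cd74 and H2-Ab1 (1.07, 0.934 to 1.21).

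By the size of the difference, H2-Aa stood with H2-Eb1, and Cd74 with H2-Ab1. Relative to Cd74, H2-Aa gave a ratio of ratios of 1.32 (1.16 to 1.5) and H2-Eb1 1.46 (1.26 to 1.70). For the DM chains, H2-DMa to H2-DMb1 was 0.648 in the WT library and 1.02 in the other (ratio of ratios 1.58, 1.02 to 2.44). With H2-DMb1 and H2-DMb2 summed, this became 1.25 (0.840 to 1.86), which includes 1. H2-DMa and Ciita relative to Cd74 gave 1.00 (0.718 to 1.41) and 1.08 (0.741 to 1.57).

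Of the genes in the MHC, 6 of the 8 members lie on chromosome 17, from H2-Oa to H2-Eb1. Between H2-Oa and H2-Eb2, a stretch of 249 kb, 14 genes had at least 10 reads, 9 of them class II genes and 5 of them other genes. Among the class II genes 8 were higher and 1, H2-DMb1, was lower. Among the 5 others 4 were higher and 1 was lower, but only Brd2, a bromodomain protein (1.09, 1.03 to 1.16), had an interval above 1. Psmb9 and Psmb8, subunits of the immunoproteasome, had ratios of 1.01 (0.829 to 1.22) and 1.01 (0.878 to 1.16). Tap1, a peptide transporter for class I, was at 0.691 (0.532 to 0.896). Tap2 had the highest ratio of the 5, 1.20 (0.959 to 1.51), with an interval that included 1.

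**Figure D4:**
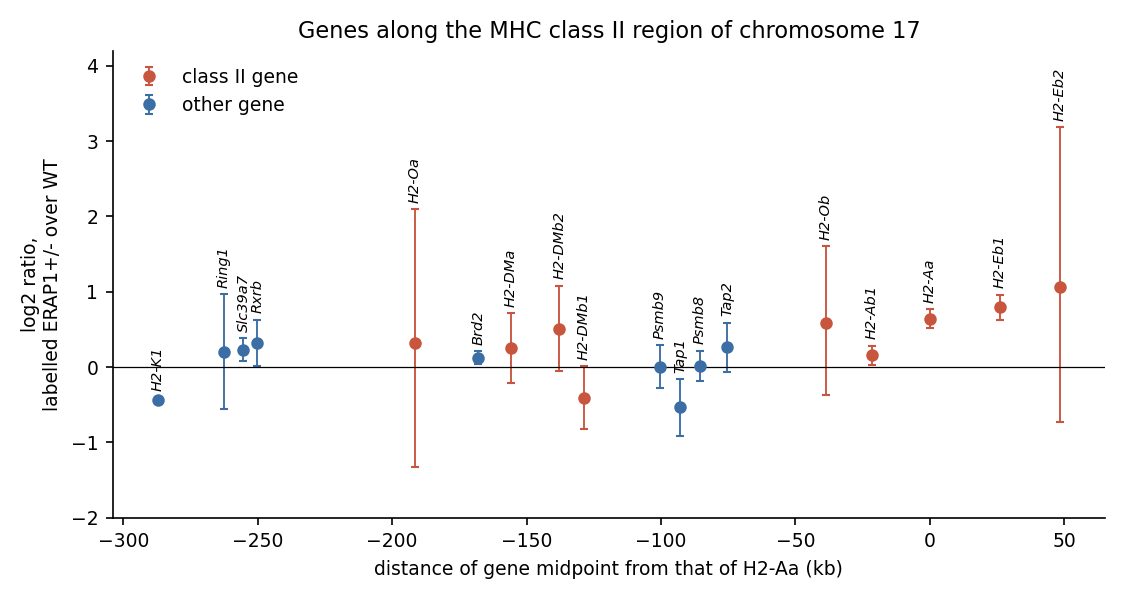
Log2 ratio of scaled reads, library labelled ERAP1+/- over WT, against the distance of each gene's midpoint from that of H2-Aa in kb along chromosome 17, with exact 95% counting intervals, for class II genes (red) and other genes with at least 10 reads (blue). H2-Aa and H2-Eb1 lie well above 0, H2-Ab1 only just, H2-DMb1 lies below 0, and Psmb8 and Psmb9 between them lie at 0.

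The 3 further class II chains not among the members were all higher by small counts. H2-DMb2, H2-Ob and H2-Eb2, the beta chains of DM, of DO and of the other I-E locus, summed to 63 reads in WT and 112 in the other library, a ratio of 1.48 (1.08 to 2.06). H2-Eb2 had 4 and 10 reads. Their median log2 difference was 0.44, and 0 of the 3 had an interval of its own that excluded 1.

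The factors that bind class II promoters were mixed. Of Rfx5, Rfxap and Rfxank, which form the RFX complex at the X1 box, of Nfya, Nfyb and Nfyc, which bind the CCAAT box, and of Creb1, which binds X2, 4 were higher and 3 lower, with a median log2 difference of 0.15. Rfx5 had 60 and 96 reads (ratio 1.34, 0.958 to 1.88) and Nfya 44 and 71 (1.35, 0.913 to 2.01). Creb1 alone had an interval above 1 (632 and 891 reads, 1.18, 1.06 to 1.31), and Nfyc alone one below (173 and 161 reads, 0.777, 0.623 to 0.969).

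The endosomal proteases that degrade the invariant chain and cut antigens were lower on balance. The whole list of endosomal processing genes held 9, of which 4 were higher and 5 lower, with a median log2 difference of -0.20 and a summed ratio of 0.794 (0.775 to 0.813). Its 7 proteases alone were 2 higher and 5 lower, with a summed ratio of 0.774 (0.755 to 0.794). Ctss, the cathepsin that makes the last cuts in the invariant chain, had 5652 reads in WT and 4598 in the other library, a ratio of 0.680 (0.653 to 0.707). Cd74 per read of Ctss therefore differed by a ratio of ratios of 1.75 (1.58 to 1.94).

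Ctsl and Ctsd, 2 other cathepsins, were lower by like amounts, at 0.673 (0.625 to 0.724) and 0.672 (0.626 to 0.721). Ctsh, an aminopeptidase cathepsin, was higher (591 and 857 reads, 1.21, 1.09 to 1.35), and so was Sppl2a, the membrane protease that removes the final stub of the invariant chain (1164 and 1656 reads, 1.19, 1.10 to 1.28). Ifi30, the thiol reductase of the endosomes, stood at 1.01 (0.931 to 1.09), and Marchf1, a ubiquitin ligase that removes class II from the surface, at 1.12 (0.745 to 1.69). Most of these genes are also expressed by cells that lack class II.

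Interferon gamma is the best known inducer of Ciita, and Ifng itself had 0 reads in both libraries. Of 8 genes of its receptor and signal past 10 reads, 2 were higher and 6 lower, with a median log2 difference of -0.075. Scaling by the total count turned this to 5 higher and 3 lower, with a median of 0.049. Jak2, the kinase bound to the receptor, had 529 and 365 reads (0.576, 0.503 to 0.660), and Irf1, a transcription factor that acts on Ciita, 1933 and 1652 (0.714, 0.668 to 0.763). Jak2 and Irf1 were thus lower where the class II chains were higher.

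Genes that interferon gamma induces were mixed. Of 8 past 10 reads 5 were higher and 3 lower (median 0.14). Cxcl9 and Cxcl10, chemokines for T cells, rested on few reads, with 4 and 23 for Cxcl9 (ratio 4.80, 1.64 to 19.1) and 4 and 18 for Cxcl10 (3.76, 1.24 to 15.3). The guanylate binding protein genes Gbp2 (157 and 183 reads, 0.974, 0.782 to 1.21) and Gbp3 (76 and 60 reads, 0.659, 0.462 to 0.937) had ratios below 1, and Gbp4 (20 and 36 reads, 1.5, 0.847 to 2.74) had one above 1.

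Genes of the class I pathway went both ways. Of 10 genes 5 were higher and 5 lower, with a median of -0.028, and by the total count 6 were higher and 4 lower, with a median of 0.094. H2-K1, a classical class I heavy chain, had 9290 and 8216 reads (0.739, 0.717 to 0.761) and H2-D1, the other, 5848 and 4633 (0.662, 0.637 to 0.688). B2m, the light chain of class I, had 7230 and 10132 reads (1.17, 1.14 to 1.21). H2-Aa per read of H2-K1 differed by a ratio of ratios of 2.12 (1.93 to 2.32).

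For costimulation, which accompanies class II on presenting cells, 5 genes passed 10 reads, 2 higher and 3 lower, with a median of -0.30. Cd83, a marker of mature dendritic cells that stabilises class II on the surface, had 37 and 80 reads (1.81, 1.21 to 2.74). Cd274, the inhibitory ligand PD-L1, had 100 and 46 (0.384, 0.265 to 0.550) and Icosl 115 and 93 (0.676, 0.508 to 0.896). Cd86 had 8 and 6 reads and Cd80 3 and 0. On the side of the CD4 T cell, Cd4, the coreceptor for class II, had 21 and 15 reads (0.597, 0.286 to 1.21). Cd28, the T cell receptor for CD80 and CD86, had 5 and 19 (3.17, 1.15 to 10.9) and Icos 5 and 9 (1.5, 0.453 to 5.71), and the other 5 of the 8 genes did not reach 10 reads.

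Leucocyte, B cell and macrophage markers were higher in the same library as the class II chains, and dendritic cell markers were mixed. The leucocyte list, 10 genes that blood cells share, summed to 928 reads in WT and 1774 in the other library, a ratio of 1.60 (1.47 to 1.73), with 8 of 10 genes higher and a median of 0.53. Ptprc, the pan-leucocyte antigen CD45, had 109 and 244 reads (1.87, 1.49 to 2.37), and Cd52 147 and 400 (2.27, 1.88 to 2.77). The part of leucocyte content in the class II differences was not tested.

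B cell markers had the highest summed ratio of the 3 presenting cell lists. They summed to 148 and 342 reads (1.93, 1.59 to 2.36), with 8 of 9 genes higher, among them Ms4a1, which encodes CD20 (13 and 38 reads), and Cd79b of the B cell receptor (5 and 50). Macrophage markers summed to 2356 and 3461 reads (1.23, 1.16 to 1.29), with 7 of 11 higher. Csf1r, the receptor for the macrophage growth factor, had 287 and 539 reads (1.57, 1.36 to 1.82), and Mrc1 325 and 357 (0.918, 0.787 to 1.07).

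Dendritic cell markers summed to 1015 and 1432 reads (1.18, 1.09 to 1.28) with 5 of 10 higher and 5 lower and a median of -0.0095. Irf8, a transcription factor also expressed by B cells and macrophages, gave 523 and 846 of these reads, and without it the ratio was 0.995 (0.881 to 1.12). Itgax, which encodes CD11c, had 16 and 46 reads (2.40, 1.33 to 4.54), while Clec10a had 103 and 63 (0.511, 0.367 to 0.706) and Xcr1 and Clec9a, which define one dendritic cell subset, had under 10 reads in each library. Group 3 innate lymphoid cells can also carry class II. Of 5 of their markers past 10 reads 3 were higher and 2 lower (median 0.46). T cell markers summed to 55 and 105 reads, with 4 of 6 higher and a median of 0.51. Plasma cell markers summed to 2231 and 4962 reads, a ratio of 1.86 (1.77 to 1.95), with 6 of 8 higher. Jchain, the joining chain of secreted antibodies, gave 561 and 2788 of these, and without it the ratio was 1.09 (1.02 to 1.16). Of the 7 genes other than Jchain, 5 were still higher and 2 lower, with a median of 0.69. Mzb1 had the highest difference of the list (27 and 201 reads, 6.22, 4.15 to 9.67). Sdc1 (0.868, 0.787 to 0.958) and Prdm1 (0.383, 0.299 to 0.488), both plasma cell genes also expressed by epithelium, were lower.

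Epithelial markers were lower on balance (3 of 12 higher, median -0.32, summed ratio 0.815, 0.807 to 0.823). Endothelial (median 0.12) and fibroblast markers (-0.048, or 0.077 under scaling by the total count) differed little. The WT library also held the skin and muscle genes: the 10 epidermal genes summed to 24160 and 215 reads and the 10 muscle genes to 8624 and 172. Of the list for Langerhans cells, the class II cells of the epidermis, the defining gene Cd207 had 2 reads in WT and 1 in the other library. The 3 of its 4 genes past 10 reads, which include the epithelial marker Epcam, had a median of -0.32. Leaving the epidermal and muscle lists out of the scaling left the median of the class II genes at 0.24. A trimmed mean gives genes of such extreme ratios little weight, so this could hardly move the median. The bearing of other skin or muscle RNA on the class II genes was not tested.

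**Figure D5:**
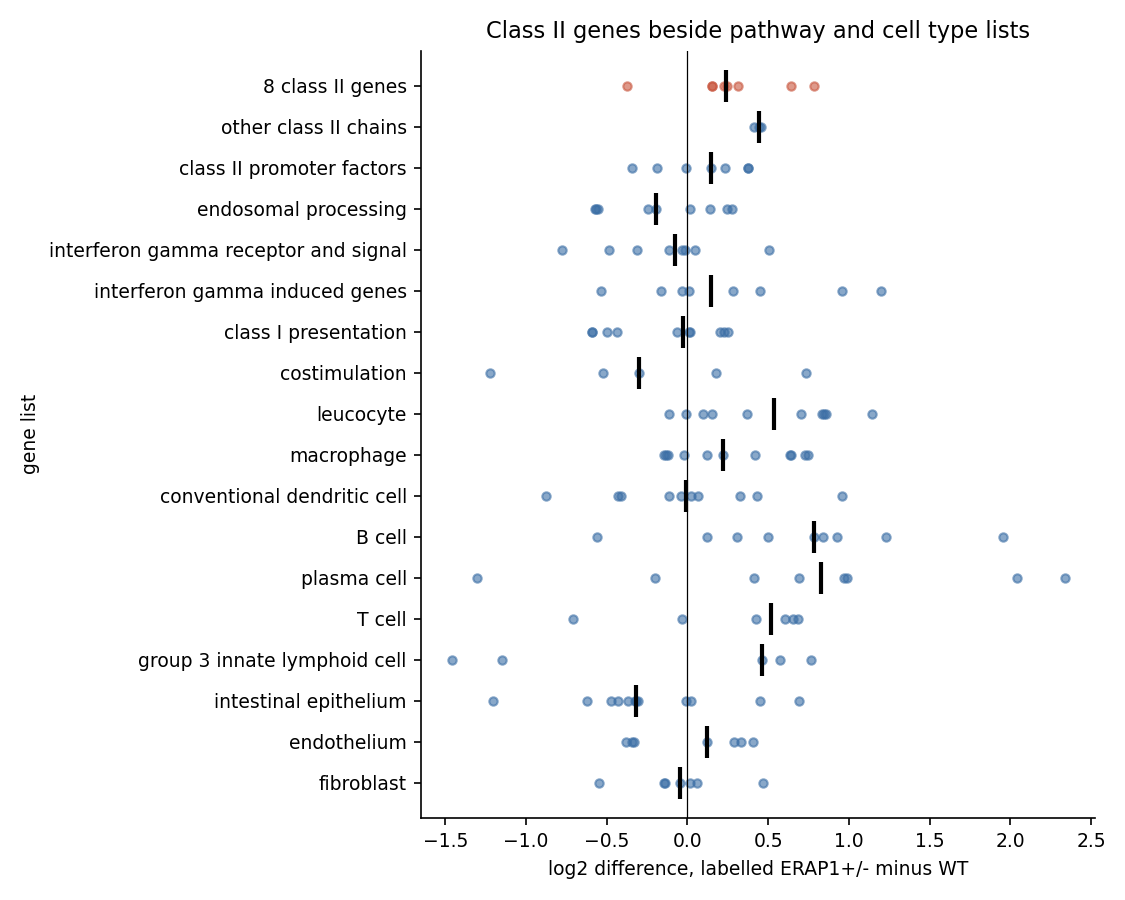
Log2 difference, library labelled ERAP1+/- minus WT, of each gene with at least 10 reads (points) and the median (bars) for the 8 class II genes and for pathway and cell type lists. The class II genes (median 0.24) lie between the class I list (-0.028) and the leucocyte (0.53) and B cell (0.79) lists, and endosomal processing (-0.20) lies below 0.

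The class II genes were also set against these cell markers, which leaves the order among the 8 genes as it was. Per read of the leucocyte list, the 8 genes together had a ratio of ratios of 0.833 (0.759 to 0.913). H2-Aa (0.980, 0.870 to 1.10) and H2-Eb1 (1.09, 0.943 to 1.25) differed between the libraries as the leucocyte list did, within counting error. H2-Ab1 (0.698, 0.618 to 0.788), Cd74 (0.743, 0.656 to 0.842) and H2-DMb1 (0.473, 0.351 to 0.638) were lower per leucocyte read.

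The answer depended on which cells were taken as the reference. Per read of the macrophage, dendritic cell and B cell lists together, the 8 genes gave 1.07 (1.01 to 1.14), with H2-Aa at 1.26 (1.14 to 1.39), H2-Eb1 at 1.40 (1.23 to 1.58), H2-Ab1 at 0.897 (0.812 to 0.991) and Cd74 at 0.955 (0.861 to 1.06). Macrophage markers gave most reads of that joint reference: 2356 in WT, against 1015 for dendritic cell and 148 for B cell markers. Per read of the macrophage list alone, the 8 genes gave 1.08 (1.01 to 1.16). Per read of the epithelial list, the 8 genes gave 1.63 (1.56 to 1.71).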

How the data were processed

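RNA of the intestine, pooled from 3 mice per genotype, was sequenced as 1 library per genotype with a 3' end RNA-seq kit. The authors deposited raw counts of reads per gene symbol. Their methods describe STAR with HTSeq and also Bowtie2 with RSEM on GRCm38, the submitters' processing notes name the latter, and which made the counts is not stated.

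With edgeR 4.0.16 (R 4.3.3), TMM factors of 0.958 for WT and 1.04 for the library labelled ERAP1+/- were obtained. Ratios of scaled counts, ratios of ratios and shares carry exact 95% intervals (scipy 1.17.1). Only those of the ratios of scaled counts were tested on simulated data, which held counting error alone. Lists were filtered at 10 reads over both libraries. No test was run, because each genotype has 1 library. Alternatives were DESeq2 1.42.0 size factors, total count and upper quartile scaling, a pseudocount of 0.1, other filters and thresholds, thinning, and gene classes left out. H2-DMb1 summed with H2-DMb2, and lists without Irf8, without Jchain or with proteases only, were added after the data were seen. All 8 members were named, and list genes were named by most reads and by highest or lowest difference, with others of the lists chosen after their values were seen. The members and lists were chosen with earlier results of these data known. Of the symbols in the lists, 3 were not in the files. Single values of some list genes are not reported here.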

Additional observations from a re-analysis of the deposited data

How the results depend on the processing

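No paired analysis was possible because there is 1 library of each genotype, and none could be left out. The 8 class II genes stayed 7 higher and 1 lower under every scaling and pseudocount. Scaling by the total count gave a median of 0.36 for them, against 0.24, and 0.28 for H2-Ab1 and 0.37 for Cd74, against 0.15 and 0.24. A pseudocount of 0.1 gave 0.29 for H2-Oa, against 0.15. The total count also moved the median of all genes at a level of 4 or more from -0.026 to 0.11 and the share of lower genes among the 428 past 2-fold from 74.1% to 59.9% of 414. List medians under the total count were -0.077 for endosomal processing, 0.27 for promoter factors, 0.049 for interferon gamma signal, 0.094 for class I, 0.34 for macrophage, 0.92 for plasma cell, 0.58 for innate lymphoid cell, -0.20 for epithelium, -0.19 for Langerhans cell, 0.24 for endothelium and 0.077 for fibroblast lists. Upper quartile scaling gave 0.0020 for class I, -0.29 for epithelium and -0.018 for fibroblast lists, and a pseudocount of 0.1 gave -0.56 for costimulation, 1.07 for plasma cell, -7.68 for epidermis and -6.56 for muscle lists. Genes past the fold numbered 1434 with no filter, 1390 with 10 reads in 1 library, 160 at a level of 6, 1247 at 1.5-fold and 160 at 4-fold. The 8 genes relative to leucocyte genes gave 0.833, against 1.07 for macrophage, dendritic and B cell lists and 1.63 for epithelium. The causes of these shifts were not tested. Depth limits H2-Oa, Ciita, H2-DMa and H2-DMb1, and the intervals leave out differences between mice.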
